A study of Mus musculus with 4 samples.

Results

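Expression of 9 Hedgehog genes was compared between embryonic cells that the paper describes as Nfatc1+ and Shh+ hair peg cells. They are the ligand gene Shh, the receptor gene Ptch1, the decoy receptor gene Hhip, the coreceptor genes Gas1, Boc and Cdon, and the transcription factor genes Gli1, Gli2 and Gli3. The genes were chosen by symbol, as 9 of the 23361 genes measured. RNA was sequenced from 2 libraries of Nfatc1+ cells and 2 libraries of Shh+ cells, all from back skin of mouse embryos at E17.5. All mice carried Rosa-stop-tdTomato, a red reporter that is silent until Cre acts, and K14-H2BGFP, a nuclear GFP of keratin 14-expressing epithelium. In the Nfatc1+ group the reporter was switched on by Nfatc1-CreER, and in the Shh+ group by Shh-CreER, after a dose of tamoxifen to the mother at E15.5. Cells positive for GFP and tdTomato were sorted. The reporter stays on in the descendants of a labelled cell. A population therefore holds cells that expressed the driver gene, Nfatc1 or Shh, around the time of tamoxifen, and their descendants. It does not hold only cells that express the gene at E17.5. Whole skin was digested in trypsin for the Nfatc1+ cells. For the Shh+ cells, the epidermis was first taken off with dispase, and the dermis with its hair pegs was then digested. Only the Shh+ preparation thus set hair pegs apart before sorting. The population, the CreER line its embryos carried and the way its cells were released cannot be told apart in these libraries. The paper describes the CreER lines as knock-ins, and any effect of the Shh-CreER allele on the Hedgehog genes was not tested. Whether libraries of the same population came from different animals or litters is not given in the sources used here. The p-values therefore reflect no more than how these 4 libraries varied, and that variation may be technical.

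In Hedgehog signaling, a secreted ligand binds the receptor Ptch1, which otherwise holds the membrane protein Smo inactive. Gas1, Boc and Cdon are coreceptors that help the ligand bind, and Hhip binds the ligand without passing the signal on. Active Smo acts through the primary cilium on the Gli proteins, of which Gli2 is mainly an activator, Gli3 mainly a repressor, and Gli1 an activator whose own gene is a target of the pathway. Ptch1 and Hhip are also induced by the signal and feed back on it. In skin, Shh made by the epithelium of the hair placode and its descendants is needed for the follicle to grow down into the dermis.

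RefSeq gave a promoter window on GRCm38.p6 for 6 of the 9 genes, Ptch1, Hhip, Gas1, Cdon, Gli2 and Gli3. The windows hold the 250 bases before the annotated start, and the starts given for Ptch1, Cdon and Gli3 lie inside the longer gene models. The GLI binding consensus GACCACCCA was searched on both strands, and its core CCACCC, which lies inside it, was added after the consensus had been searched. The consensus was in none of the 6 windows and in 0.225% of the 32851 windows of all genes. The core was in 3 of the 6, those of Gli2, Gli3 and Hhip, and in 28.1% of all windows. GC content was 67.2%, 72.8% and 76% in the windows of Gli2, Gli3 and Hhip. It was 42.8%, 58.8% and 78.4% in those of Cdon, Gas1 and Ptch1, against a median of 52.4% over all windows. The part of GC content in the matches was not tested. Of the 35 windows of 29 other pathway genes, none held the consensus and 8 held the core. A match is a description and not a binding site, and its absence says only that these letters are not in the window. The windows of 4 genes are printed for the reasons that follow, though Shh, Boc and Cdon differed more than Ptch1 or Gli2. Ptch1 and Hhip are both feedback genes of the pathway but differed in opposite directions, though neither call held in every alternative setting of the test. Gli2 was the Gli gene that passed the test, and Gas1 had the largest difference toward Nfatc1+ cells. Capitals mark the core on either strand.
Ptch1, chr13:63565736-63565985, minus strand: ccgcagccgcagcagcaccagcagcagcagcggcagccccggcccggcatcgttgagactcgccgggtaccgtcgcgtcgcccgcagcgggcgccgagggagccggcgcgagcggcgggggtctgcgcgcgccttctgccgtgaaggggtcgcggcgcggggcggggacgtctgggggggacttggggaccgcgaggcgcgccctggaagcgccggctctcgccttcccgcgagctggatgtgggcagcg
Hhip, chr8:80058009-80058258, minus strand: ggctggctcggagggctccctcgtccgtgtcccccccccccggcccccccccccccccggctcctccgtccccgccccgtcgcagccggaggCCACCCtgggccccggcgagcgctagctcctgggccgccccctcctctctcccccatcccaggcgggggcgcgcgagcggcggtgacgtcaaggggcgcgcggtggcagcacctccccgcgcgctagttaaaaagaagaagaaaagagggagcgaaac
Gli2, chr1:119053620-119053869, minus strand: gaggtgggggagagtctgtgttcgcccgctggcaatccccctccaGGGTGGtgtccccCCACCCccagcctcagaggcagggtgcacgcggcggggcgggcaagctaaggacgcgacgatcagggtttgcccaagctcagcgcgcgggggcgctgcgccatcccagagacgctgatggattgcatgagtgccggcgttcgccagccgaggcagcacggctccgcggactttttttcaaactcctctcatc
Gas1, chr13:60177536-60177785, minus strand: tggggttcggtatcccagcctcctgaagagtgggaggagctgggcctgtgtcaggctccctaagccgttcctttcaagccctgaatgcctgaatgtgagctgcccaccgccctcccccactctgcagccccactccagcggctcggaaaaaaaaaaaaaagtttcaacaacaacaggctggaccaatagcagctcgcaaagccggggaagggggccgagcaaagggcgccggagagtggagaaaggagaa

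Expression was deposited as FPKM, the number of fragments of a gene divided by its transcript length and by the mapped fragments of the library. FPKM corrects for gene length, so levels can be set side by side between genes. The mean over the 4 libraries reached 0.5 FPKM for 12750 genes, which were tested with limma on log2(FPKM + 0.5), and all 9 Hedgehog genes were among them. Calls of higher expression were made where the p-value, adjusted by Benjamini-Hochberg over all tested genes, was under 0.05. Log2 differences subtract Nfatc1+ from Shh+ values after 0.5 FPKM is added, so the difference of genes at low levels is understated, and folds are ratios of mean FPKM. The absolute depth is unknown, and relative to Nfatc1+ replicate 1, the depth of the other Nfatc1+ library was 0.927 and that of the Shh+ libraries was 0.927 and 0.575, as read from the steps between values below 0.3 FPKM. Low values are therefore least precise in Shh+ replicate 2. In bulk libraries, fewer cells that express a gene and less RNA of it per cell cannot be told apart.

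Most of the 9 genes differed between the populations, and 5 of the 7 that passed the test were higher in Nfatc1+ cells. Shh and Ptch1 were the 2 called higher in Shh+ cells, where 18.1% of all tested genes were called in that direction. Gas1, Boc, Cdon, Gli2 and Hhip were the 5 called higher in Nfatc1+ cells, as were 18.9% of the tested genes. The count toward Shh+ cells was near that of all genes, and Shh itself marked the sort, while the count toward Nfatc1+ cells lay above it. Gli1 and Gli3 did not pass. The 2 libraries of a population did not overlap those of the other for any of the 9 genes, with 3 genes at higher values in Shh+ cells and 6 at higher values in Nfatc1+ cells, where 35.6% and 35.1% of all tested genes did so. The median log2 difference of the 9 genes was −0.43, or −0.55 without Shh, against 0.0018 over all tested genes. Replicates of these genes lay close together, with a median absolute log2 difference between replicates of 0.08 for Nfatc1+ and 0.10 for Shh+ cells. Over all tested genes it was 0.10 and 0.11.

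**Figure D1:**
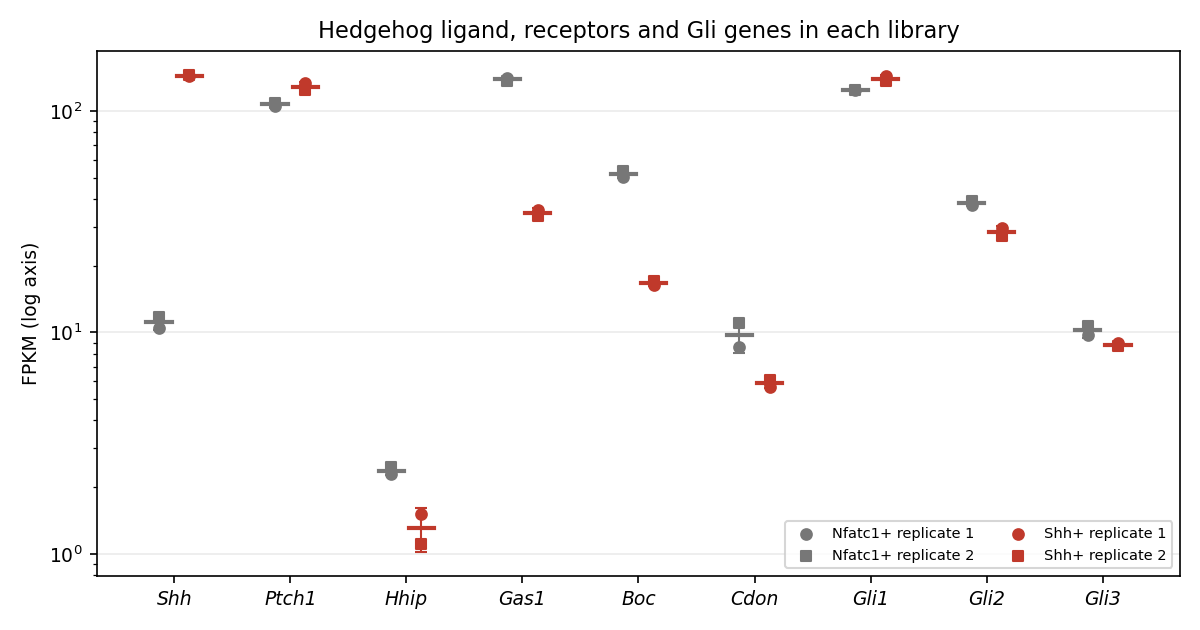
Expression of the 9 Hedgehog genes in FPKM, on a log axis, in each library, with Nfatc1+ cells in grey and Shh+ cells in red, circles for replicate 1, squares for replicate 2, thick lines for means and bars for SD (n = 2). The widest gap is that of Shh, with means of 11.1 and 144.3 FPKM, and Gas1 and Boc show the widest gaps in the other direction.

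Shh encodes the ligand, and because its CreER allele marked the Shh+ cells, its level checks the labels and is no finding. Shh lies on chromosome 5 of GRCm38 from 28456815 to 28467256 on the minus strand. Its level was 10.5 and 11.7 FPKM in the Nfatc1+ libraries and 143.9 and 144.7 FPKM in the Shh+ libraries. Both Shh+ libraries were far above both Nfatc1+ libraries, as their labels say. The means were 11.1 ± 0.877 and 144.3 ± 0.537 FPKM (SD, n = 2), a 12.98-fold difference and a log2 difference of 3.64 (standard error 0.07, limma adjusted p = 1.86e-06). Shh RNA was thus not absent from the Nfatc1+ libraries, where it lay near the median level of all tested genes, 12.7 FPKM. The genes of the other mammalian Hedgehog ligands were close to 0. Ihh, which acts in bone growth, was at 0.113 and 0.0406 FPKM in Nfatc1+ cells and at 0 and 0.131 FPKM in Shh+ cells. Dhh, known from Schwann cells and testis, was at 0.429 and 0.252 FPKM in Nfatc1+ cells and at 0.0420 and 0.203 FPKM in Shh+ cells. Both were below the minimum for testing. Part of the annotated exons of Shh, 807 of 2847 bases, overlaps 2 transcripts of the opposite strand, 9530036O11Rik and Gm26894. The sources used here do not give whether the libraries kept strand, so reads from such overlaps cannot be told apart.

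Ptch1, the receptor, was abundant in both populations and slightly higher in Shh+ cells. It lies on chromosome 13 from 63508328 to 63573598 on the minus strand. Ptch1 was at 105.8 and 108.5 FPKM in the Nfatc1+ libraries and at 133.4 and 124.4 FPKM in the Shh+ libraries. Both Shh+ libraries were above both Nfatc1+ libraries, and the gap was narrow beside the level. The means were 107.1 ± 1.87 and 128.9 ± 6.39 FPKM (SD, n = 2), a 1.20-fold difference with a log2 difference of 0.27 (standard error 0.06, 95% interval 0.12 to 0.41, limma adjusted p = 0.0144). The call ended without Nfatc1+ replicate 1 (adjusted p = 0.0738), without Nfatc1+ replicate 2 (0.0516) and without Shh+ replicate 1 (0.0633), in a range of 0.00971 to 0.0738 over the alternatives. In a ranking of all tested genes by mean level, Ptch1 stood at the 95.8 percentile.

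Hhip, the decoy receptor, was the least expressed of the 9 genes and was higher in Nfatc1+ cells. It lies on chromosome 8 from 79965851 to 80058006 on the minus strand, and an opposite-strand transcript overlaps 175 of its 9076 exonic bases. Its level was 2.30 and 2.46 FPKM in the Nfatc1+ libraries and 1.52 and 1.11 FPKM in the Shh+ libraries. The libraries of the populations did not overlap, and the lowest value was in Shh+ replicate 2, the shallowest library. The means were 2.38 ± 0.115 and 1.31 ± 0.291 FPKM (SD, n = 2), a 1.81-fold difference with a log2 difference of −0.68 (standard error 0.19, 95% interval −1.12 to −0.23, limma adjusted p = 0.0282). The call ended without Nfatc1+ replicate 1 (adjusted p = 0.0889), Nfatc1+ replicate 2 (0.126) or Shh+ replicate 2 (0.105), and with no minimum level (0.0556). Ptch1 and Hhip, both feedback genes of the pathway, thus differed in opposite directions, but neither call held in all alternatives. Beside Ptch1 in the same library, Hhip stood at 2.17% and 2.27% of its level in Nfatc1+ cells and at 1.14% and 0.889% in Shh+ cells.

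All 3 coreceptor genes were higher in Nfatc1+ cells, and Gas1 and Boc had the largest differences of the Hedgehog genes after Shh. Gas1, which encodes a lipid-anchored membrane protein, lies on chromosome 13 from 60174405 to 60177365 on the minus strand. It was at 141.4 and 136.4 FPKM in the Nfatc1+ libraries and at 35.8 and 33.4 FPKM in the Shh+ libraries. Both Nfatc1+ libraries were far above both Shh+ libraries, and in Nfatc1+ cells Gas1 had the highest level of the 9 genes. The means were 138.9 ± 3.50 and 34.6 ± 1.70 FPKM (SD, n = 2), a 4.01-fold difference with a log2 difference of −1.99 (standard error 0.06, 95% interval −2.14 to −1.84, limma adjusted p = 4.20e-06). Its adjusted p did not exceed 0.000573 in any alternative. Among the 12750 tested genes, Gas1 took place 193 when they were ordered by their difference toward Nfatc1+ cells. An opposite-strand transcript overlaps 589 of the 2961 exonic bases of Gas1.

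Boc and Cdon encode related transmembrane proteins of the immunoglobulin superfamily. Boc, on chromosome 16 from 44485049 to 44558897 on the minus strand, was at 50.3 and 53.7 FPKM in the Nfatc1+ libraries and at 16.4 and 17.1 FPKM in the Shh+ libraries. Both Nfatc1+ values of Boc were far above both Shh+ values. The means were 52.0 ± 2.42 and 16.7 ± 0.491 FPKM (SD, n = 2), a 3.11-fold difference with a log2 difference of −1.61 (standard error 0.07, 95% interval −1.78 to −1.44, limma adjusted p = 1.10e-05), and its adjusted p did not exceed 0.000775 in any alternative. Cdon, on chromosome 9 from 35421128 to 35507652 on the plus strand, was at 8.57 and 10.97 FPKM in the Nfatc1+ libraries and at 5.69 and 6.13 FPKM in the Shh+ libraries. On the log2 scale its Nfatc1+ replicates lay 0.34 apart, further than those of any other of the 9 genes, yet both stayed above the Shh+ libraries. The means were 9.77 ± 1.70 and 5.91 ± 0.305 FPKM (SD, n = 2), a 1.65-fold difference with a log2 difference of −0.67 (standard error 0.14, 95% interval −0.99 to −0.35, limma adjusted p = 0.00858). The call of Cdon ended without Nfatc1+ replicate 2, where the adjusted p was 0.0569, the highest of its alternatives. No annotated transcript on the other strand overlapped the exons of Boc or Cdon.

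The Gli genes differed little between the populations, and Gli2 was the Gli gene that passed the test. Gli1, the activator whose gene is a target of the pathway, lies on chromosome 10 from 127329882 to 127341974 on the minus strand. It was at 124.3 and 124.8 FPKM in the Nfatc1+ libraries and at 144.2 and 135.9 FPKM in the Shh+ libraries. The libraries did not overlap, but the gap was small beside the level. The means were 124.5 ± 0.343 and 140.1 ± 5.86 FPKM (SD, n = 2), with a log2 difference of 0.17 (standard error 0.06, unadjusted 95% interval 0.03 to 0.31, limma adjusted p = 0.0610), so Gli1 did not pass the test. It passed with upper-quartile scaling over the tested genes, an alternative chosen after seeing the data (adjusted p = 0.0404), and its highest adjusted p was 0.202. Gli1 stood at the 96.3 percentile of all tested genes by mean level.

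Gli2, on chromosome 1 from 118834132 to 119053619 on the minus strand, was at 37.8 and 39.4 FPKM in the Nfatc1+ libraries and at 29.6 and 27.3 FPKM in the Shh+ libraries. Both Nfatc1+ libraries were above both Shh+ libraries. The means were 38.6 ± 1.12 and 28.5 ± 1.65 FPKM (SD, n = 2), a 1.36-fold difference with a log2 difference of −0.43 (standard error 0.07, 95% interval −0.60 to −0.26, limma adjusted p = 0.00371). Its adjusted p did not exceed 0.0302 in any alternative. Gli3, on chromosome 13 from 15463235 to 15730026 on the plus strand, was at 9.70 and 10.7 FPKM in the Nfatc1+ libraries and at 8.98 and 8.64 FPKM in the Shh+ libraries. Its values did not overlap between the populations, yet the gap was narrower than that between the Nfatc1+ replicates. The means were 10.2 ± 0.740 and 8.81 ± 0.234 FPKM (SD, n = 2), with a log2 difference of −0.20 (standard error 0.10, 95% interval −0.44 to 0.03, limma adjusted p = 0.152). Gli3 was not called in any alternative, and the interval still leaves room for a difference toward Nfatc1+ cells of the size seen for Gli2. Annotated transcripts on the other strand overlap 327 of 4995 exonic bases of Gli1, 188 of 9589 of Gli3 and none of Gli2.

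**Figure D2:**
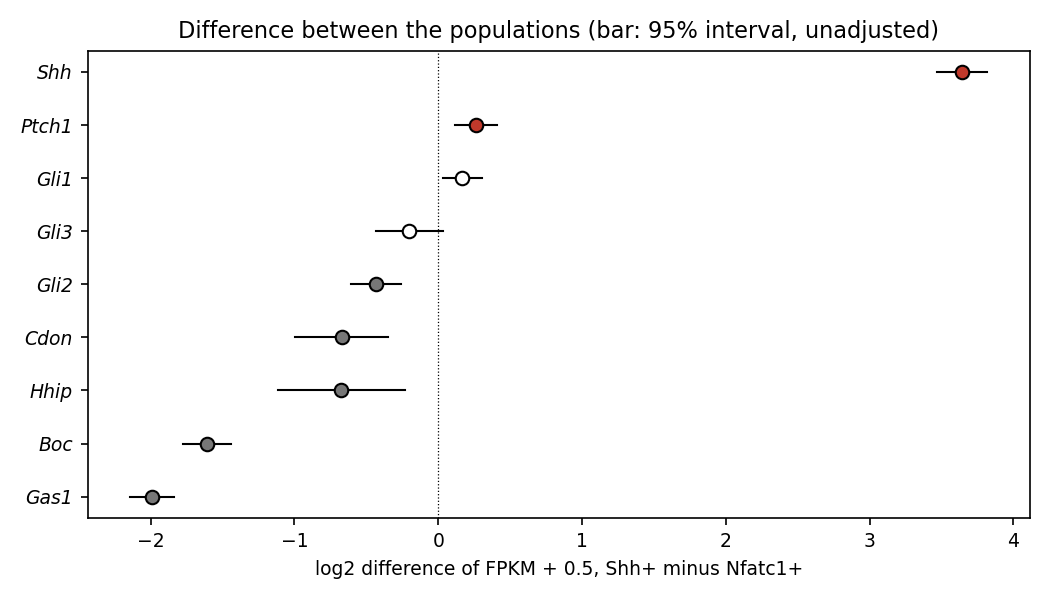
Log2 difference of FPKM + 0.5, Shh+ minus Nfatc1+, for the 9 Hedgehog genes, with unadjusted 95% intervals from limma (n = 2 libraries a group). Red points were called higher in Shh+ cells, grey points were called higher in Nfatc1+ cells, and the open points, Gli1 and Gli3, did not pass the test.

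Sums and ratios of these genes were formed within each library as a description, with no test, since 2 libraries against 2 cannot give an exact two-sided p under 0.05. The summed level of Gas1, Boc and Cdon was 200.2 and 201.1 FPKM in the Nfatc1+ libraries and 57.9 and 56.6 FPKM in the Shh+ libraries. Gas1 made up 70.6% and 67.8% of that sum in Nfatc1+ cells and 61.9% and 59.0% in Shh+ cells, so it was the leading coreceptor gene in all 4 libraries. Boc made up 25.1% and 26.7% in Nfatc1+ cells and 28.3% and 30.1% in Shh+ cells. For each FPKM of coreceptor genes there was thus less Ptch1 in Nfatc1+ cells, with ratios of 0.529 and 0.539, than in Shh+ cells, with ratios of 2.306 and 2.198.

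The summed level of the Gli genes, by contrast, overlapped between the populations. It was 171.8 and 174.9 FPKM in the Nfatc1+ libraries and 182.8 and 171.9 FPKM in the Shh+ libraries. The ratio of Gli1 to the sum of Gli2 and Gli3 was 2.62 and 2.49 in Nfatc1+ cells and 3.74 and 3.78 in Shh+ cells. Gli1 was thus the most abundant Gli transcript in every library, and the ratio was larger in both Shh+ libraries. The ratio of Gli2 to Gli3 was 3.89 and 3.66 in Nfatc1+ cells and 3.30 and 3.16 in Shh+ cells. Ptch1 and Gli1, the commonly read response genes, kept to a narrow ratio of 0.851 and 0.869 in Nfatc1+ cells and of 0.925 and 0.915 in Shh+ cells. The ratio of Ptch1 to the ligand gene Shh was 10.1 and 9.24 in Nfatc1+ cells and 0.927 and 0.860 in Shh+ cells. Because Shh marked the sort, the gap in this ratio was largely set by the sorting and is no finding.

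**Figure D3:**
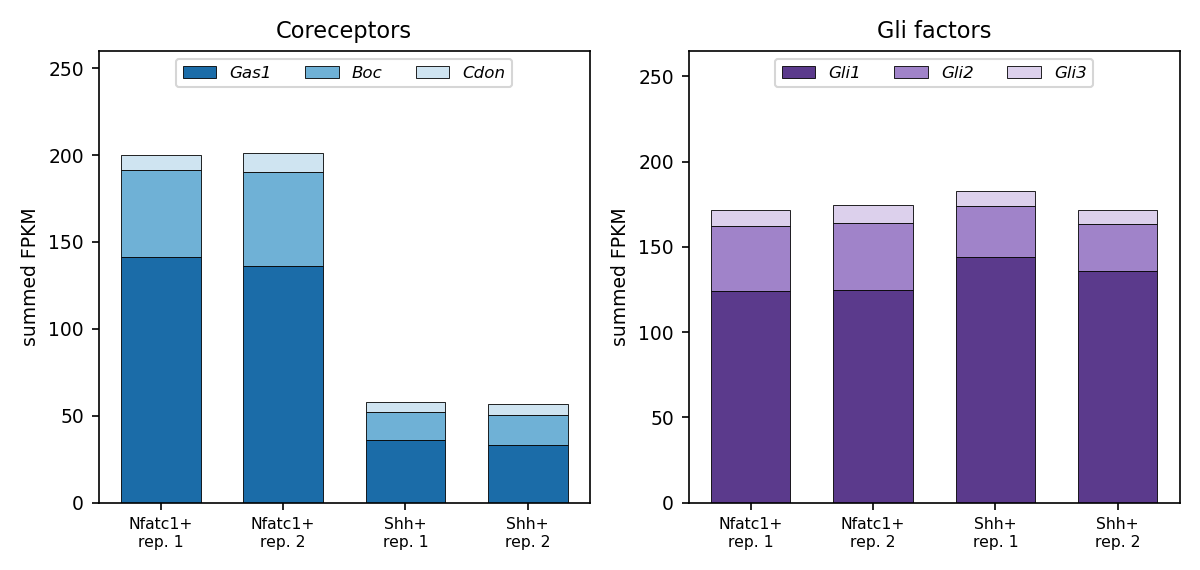
Summed FPKM of the coreceptor genes Gas1, Boc and Cdon (left) and of Gli1, Gli2 and Gli3 (right) in each library, as stacked bars from 0. The coreceptor sum is near 200 FPKM in both Nfatc1+ libraries and below 58 FPKM in both Shh+ libraries, while the Gli sums of the populations overlap.

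Ordered by FPKM, the genes of Nfatc1+ cells ran from Gas1 through Gli1, Ptch1, Boc, Gli2, Shh, Gli3 and Cdon to Hhip. Shh and Gli3 were neighbours whose replicates overlapped, as were Gli3 and Cdon, so their order was not separated. In Shh+ cells the order was Shh, Gli1, Ptch1, Gas1, Gli2, Boc, Gli3, Cdon and Hhip, and the replicates of Shh and Gli1 overlapped. Gli1 and Ptch1 kept places 2 and 3 in both populations, Gli3 place 7, Cdon place 8 and Hhip place 9. The changes of order came from Shh, at place 6 in Nfatc1+ cells and place 1 in Shh+ cells, and from Gas1, at places 1 and 4, Boc, at places 4 and 6, with Gli2 at place 5 in both.

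Of 38 other Hedgehog pathway genes, 33 were tested, of which 7 were called higher in Shh+ cells, 7 in Nfatc1+ cells, and 19 did not pass. Both counts were near what the shares over all tested genes, 18.1% toward Shh+ and 18.9% toward Nfatc1+ cells, would give, and the counts by role below are small parts of them, so the values describe the named genes and nothing is read from the counts. The median log2 difference of the 33 genes was −0.02. Of the 5 tested genes for ligand modification and release, 3 were higher in Shh+ cells and 1 was higher in Nfatc1+ cells, beside 18.1% and 18.9% of all tested genes. Disp1, which releases the lipid-modified ligand from the cell, was at 10.8 and 11.3 FPKM in Nfatc1+ cells and at 16.9 and 19.0 FPKM in Shh+ cells (log2 difference 0.67, limma adjusted p = 0.00155). The Scube genes encode secreted proteins, of which Scube2 is known to help carry the ligand away. Scube1 was at 1.76 and 1.81 FPKM in Nfatc1+ cells and at 53.9 and 55.7 FPKM in Shh+ cells, a 30.7-fold difference (log2 difference 4.60, limma adjusted p = 1.79e-06). Scube3 was at 6.89 and 7.70 FPKM in Nfatc1+ cells and at 37.3 and 34.9 FPKM in Shh+ cells (log2 difference 2.23, limma adjusted p = 7.29e-06). Scube2 was the exception, at 2.73 and 2.24 FPKM in Nfatc1+ cells and at 0.409 and 0.615 FPKM in Shh+ cells (log2 difference −1.56, limma adjusted p = 0.00137). Hhat, the acyltransferase that attaches palmitate to the ligand, had means of 2.57 ± 0.0444 and 2.57 ± 0.245 FPKM in Nfatc1+ and Shh+ cells (SD, n = 2), with a 95% interval of the log2 difference from −0.36 to 0.35.

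Smo, the signal transducer that Ptch1 inhibits, was at 61.8 and 59.2 FPKM in Nfatc1+ cells and at 62.0 and 60.1 FPKM in Shh+ cells. The values of Smo overlapped, with a log2 difference of 0.01 (95% interval −0.13 to 0.16, limma adjusted p = 0.898).

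Among 14 genes listed as regulators of the Gli proteins, 1 was called higher in Shh+ cells, 4 in Nfatc1+ cells, and 9 did not pass. The shares over all tested genes were 18.1% and 18.9%. Sufu, which holds Gli proteins back in the cytoplasm, was at 20.3 and 21.8 FPKM in Nfatc1+ cells and at 17.7 and 15.5 FPKM in Shh+ cells (log2 difference −0.34, limma adjusted p = 0.0274, up to 0.151 over the alternatives). Prkaca and Prkacb, which encode catalytic subunits of protein kinase A, and Spop, an adaptor for Gli degradation, were also higher in Nfatc1+ cells, with log2 differences of −0.44, −0.36 and −0.28. The calls of Sufu and Spop ended without Nfatc1+ replicate 1 or 2 or Shh+ replicate 2, and that of Prkacb without Nfatc1+ replicate 2 or Shh+ replicate 1. All 3 calls also ended without the intensity trend of the test, and those of Sufu and Prkacb with no minimum level, with adjusted p up to 0.108 for Spop and 0.1695 for Prkacb. Stk36, a kinase related to Drosophila Fused, was higher in Shh+ cells (log2 difference 0.86, limma adjusted p = 0.00697). Kif7, a ciliary kinesin that regulates Gli proteins, had means of 12.7 ± 0.631 and 14.0 ± 0.942 FPKM in Nfatc1+ and Shh+ cells (SD, n = 2), and did not pass (95% interval of the log2 difference −0.09 to 0.35, limma adjusted p = 0.299). Of 6 cilium genes, Kif3a, an anterograde motor subunit, was higher in Shh+ cells (log2 difference 0.41), Arl13b, a small GTPase of the ciliary membrane, was higher in Nfatc1+ cells (log2 difference −0.70), and 4 were not called. The call of Kif3a ended without Nfatc1+ replicate 2 or Shh+ replicate 1 (limma adjusted p up to 0.0875).

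Of 9 genes listed as Hedgehog targets, 7 were tested, with 2 called higher in Shh+ cells, 1 called higher in Nfatc1+ cells and 4 not called, beside 18.1% and 18.9% of all tested genes called in each direction. Bcl2, an inhibitor of apoptosis, had means of 16.1 ± 0.262 and 30.3 ± 0.356 FPKM in Nfatc1+ and Shh+ cells (SD, n = 2; log2 difference 0.89, limma adjusted p = 0.000121). Ccnd2, a D-type cyclin gene, was at 77.6 ± 3.51 and 97.1 ± 8.58 FPKM (SD, n = 2; log2 difference 0.32, limma adjusted p = 0.0175), a call that ended without Nfatc1+ replicate 1, without Shh+ replicate 2 and without the intensity trend (adjusted p up to 0.0914). Ccnd1, another D-type cyclin gene, was at 100.7 ± 0.0714 and 84.9 ± 9.32 FPKM and did not pass (SD, n = 2; unadjusted 95% interval of the log2 difference −0.44 to −0.06, limma adjusted p = 0.0512). Ccnd1 was called higher in Nfatc1+ cells with the replicate block, with median-of-ratios scaling, with a minimum of 1 FPKM and without Shh+ replicate 1 (adjusted p down to 0.0133, up to 0.172 over the alternatives). Sox9, a transcription factor of the outer root sheath and stem cells, was at 92.0 and 96.8 FPKM in Nfatc1+ cells and at 37.8 and 31.7 FPKM in Shh+ cells. Sox9 thus lay on the side of Gas1 and Boc, opposite to Bcl2. Many of these genes are also controlled by other pathways.

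**Figure D4:**
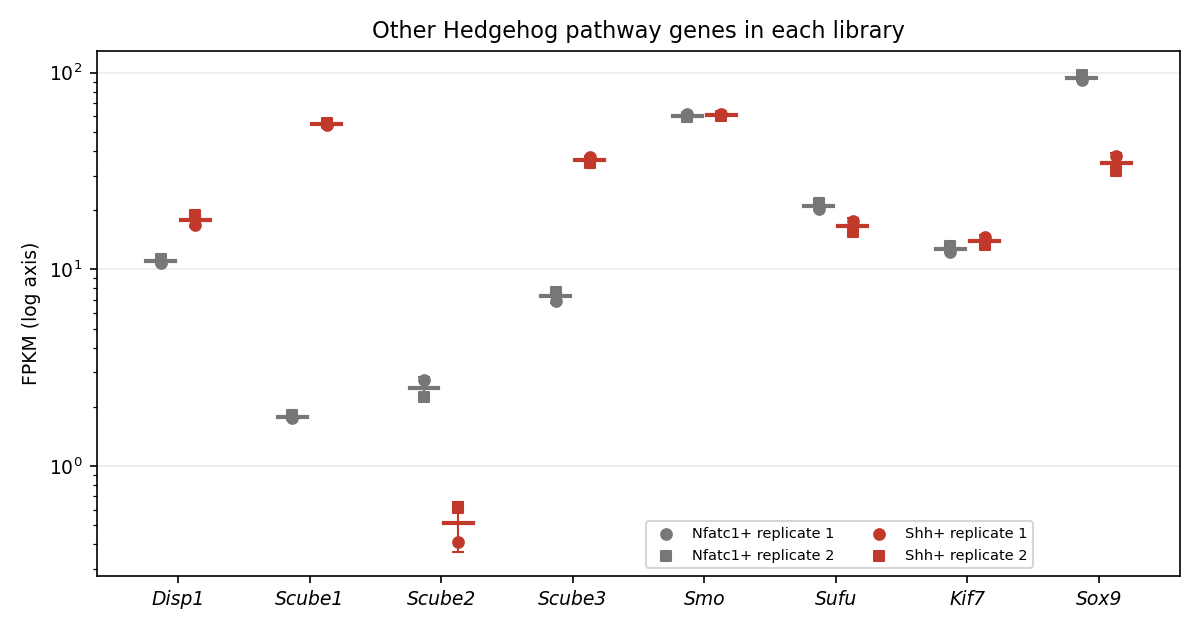
Expression of 8 other Hedgehog pathway genes in FPKM, on a log axis, in each library, with Nfatc1+ cells in grey and Shh+ cells in red, circles for replicate 1, squares for replicate 2, thick lines for means and bars for SD (n = 2). Scube1 and Scube3 sit higher in Shh+ cells and Scube2 and Sox9 higher in Nfatc1+ cells, while the points of Smo overlap.

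For Shh, Gas1 and Gli1, the genes of most like pattern were found as the 3 with the smallest Euclidean distance of log2(FPKM + 0.5) over the 4 libraries. With 4 libraries in 2 groups, the distance reads little more than the mean level in each population. For Shh they were Wnt10b (distance 0.85), Has3 (1.04) and Kremen2 (1.09), all further away than the nearest genes of Gas1 and Gli1. For Gas1 they were Pthlh (0.43), with means of 134.8 and 42.3 FPKM in Nfatc1+ and Shh+ cells, Ssfa2 (0.52) and Egr2 (0.58). Gli1 had much nearer neighbours, Pa2g4 (0.08), Polr2m (0.10) and Dynlrb1 (0.10), genes with means from 126.8 to 129.7 FPKM in Nfatc1+ cells and from 137.1 to 143.4 FPKM in Shh+ cells.

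Most markers of epithelium and of Merkel cells, and most immediate early and stress genes, were called toward Nfatc1+ cells. Few or none of the dermal, melanocyte, Schwann cell, endothelial and immune markers were called in either direction. The marker counts stand beside all-gene shares of 18.1% called toward Shh+ cells and 18.9% toward Nfatc1+ cells. All 7 epithelial markers were measured, with summed levels of 10100 and 9849 FPKM in the Nfatc1+ libraries and 6699 and 6502 FPKM in the Shh+ libraries, and 5 of the 7 were called higher in Nfatc1+ cells, from Krt15 at 1819 against 821.3 FPKM to Krt14 at 1218 against 1058 FPKM. Krt17 and Epcam did not pass, and the values of Epcam lay the other way, at 151.5 against 168.0 FPKM. Of 12 immediate early and stress genes, 11 were called higher in Nfatc1+ cells, with summed levels of 2836 and 3143 FPKM against 1291 and 1380 FPKM. These lie in the direction of Gas1, Boc, Cdon, Gli2 and Hhip, and their part in those differences was not tested. All 6 Merkel cell markers were called higher in Nfatc1+ cells, with sums of 42.3 and 48.3 FPKM against 18.6 and 22.6 FPKM. Krt8 weighed most in these sums, at 25.05 and 29.2 FPKM in Nfatc1+ cells and 17.1 and 20.4 FPKM in Shh+ cells. The defining Atoh1 was at 6.28 and 7.31 FPKM against 0.240 and 0.233 FPKM. The part of the Merkel cell markers in the differences of the Hedgehog genes was not tested. The 10 dermal markers summed to 293.5 and 564.7 FPKM in the Nfatc1+ libraries and 568.1 and 624.0 FPKM in the Shh+ libraries. Dcn weighed most in the Shh+ sums, at 40.3 and 57.65 FPKM in Nfatc1+ cells and 326.4 and 424.7 FPKM in Shh+ cells. Of 9 tested, 2 were called higher in Shh+ cells, Dcn and Crabp1, and 1 higher in Nfatc1+ cells, Col3a1. The libraries did not overlap for 2 genes toward Shh+ cells and for 4 toward Nfatc1+ cells, beside 35.6% and 35.1% of all tested genes. The sums therefore do not say which population held more dermal RNA. The part of dermal RNA in the differences was not tested. Melanocyte markers summed to 30.6 and 64.1 FPKM in Nfatc1+ cells and 7.89 and 41.5 FPKM in Shh+ cells, with 1 of 8 called higher in Nfatc1+ cells, Mitf. Schwann cell markers summed to between 38.6 and 45.4 FPKM over the 4 libraries and endothelial markers to between 3.25 and 4.75 FPKM, with no gene of either list called. Immune markers summed to at most 2.06 FPKM, and Cd3e and Cd207 were listed at 0 in all 4 libraries.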

How the data were processed

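RNA-seq libraries were sequenced on an Illumina HiSeq with paired-end reads. The authors mapped the reads with TopHat (v2.0.13) to the mouse build GRCm38/mm10 and deposited FPKM per gene for the 4 libraries. Cufflinks (v2.2.1) was named for quantification and HTSeq without a role in the submitters' processing notes, and the gene annotation was not given in the sources used here. The FPKM values carry no read counts, so the precision that depth gives is unknown.

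FPKM were tested as log2(FPKM + 0.5) with limma (v3.58.1, R v4.3.3), with an intensity trend and no covariate, where the mean reached 0.5 FPKM, two-sided, with Benjamini-Hochberg adjustment. The fit was tested on simulated data. Alternatives were other pseudocounts, filters, scalings, thresholds and variance settings, the replicate number as a block, and each library left out with the tested genes kept. Gene positions came from GENCODE M21, whose build matches, and promoters from RefSeq GRCm38.p6. The 9 genes, the pathway and marker lists and the tests were chosen with earlier results of these data known. The text names all 9 genes, Ihh, Dhh, Disp1, Scube3, Smo, Sufu, Kif7 and Sox9 whatever their values, up to 10 further called pathway genes with the largest differences, and the 3 nearest genes of Shh, Gas1 and Gli1. Hhat, Ccnd1 and the marker genes named singly were otherwise chosen after their values were seen. A gene of the pathway list is not reported here and was left out of its counts.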

Additional observations from a re-analysis of the deposited data

How the results depend on the processing

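The direction of all 9 Hedgehog genes was kept in each of 126 combinations of gene and alternative, and the call in 112 of them. Only the scalings could have changed a direction, so its being kept says little. The filters, the variance setting, the block and the threshold leave the log2 difference as it is. No pseudocount or left-out library can reverse a gene whose libraries do not overlap, as held for all 9. Shh, Gas1 and Boc kept their calls in all 14 alternatives. Ptch1 was not called without the intensity trend (0.27, limma adjusted p = 0.0701), and its log2 difference ranged from 0.21 to 0.32 with each library left out. Hhip was not called with no filter on low values (−0.68, adjusted p = 0.0556), and ranged from −0.84 to −0.51 with each library left out. Cdon ranged from −0.84 to −0.50 and was not called without Nfatc1+ replicate 2. At an unadjusted p under 0.01 and a difference of at least 2-fold, the form of the study's threshold, Ptch1 (0.27), Gli2 (−0.43), Cdon (−0.67) and Hhip (−0.68) were not called because each differed by less than 2-fold. Gli1 was called with upper-quartile scaling over the tested genes (0.18, adjusted p = 0.0404), an alternative chosen after seeing the data. It was not called when the quartile was taken over the values above 0 of each library (adjusted p = 0.0842), and the cause was not tested.

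The count of Hedgehog genes higher in Shh+ cells was 1 without the trend and at the study's form of threshold, and 1 to 2 with each library left out. The count higher in Nfatc1+ cells was 2 at that threshold and 3 to 5 with each library left out, with 3 without Nfatc1+ replicate 2. Of the other pathway genes, 2 were higher in Shh+ cells at that threshold, 6 without the trend and 6 with each library left out. Higher in Nfatc1+ cells were 2 at that threshold, 4 without the trend and 4 to 7 with each library left out, with 4 without Nfatc1+ replicate 2. Over all tested genes, 2310 and 2405 were called in the reported test, 600 and 734 at that threshold, and 1529 to 1741 and 1656 to 1975 with each library left out. Without Nfatc1+ replicate 2 they were 1529 and 1656.

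Replicate numbers are shared by the groups but nothing says that they pair the libraries, and the deviations of same-numbered libraries correlated at 0.114 over 12750 genes. With the replicate block, the counts of Hedgehog genes were 2 and 5 and those of the other pathway genes 7 and 8, and Gli1 had a log2 difference of 0.17 (adjusted p = 0.0779). The lower relative depth of Shh+ replicate 2 limits low genes such as Hhip.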
